A study of Mus musculus with 2 samples.

Results

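The nuclear genes of oxidative phosphorylation were examined in single-cell RNA-seq of mouse liver. They were chosen by symbol alone, as the Ndufa, Ndufb, Ndufc, Ndufs and Ndufv genes, Sdha to Sdhd, the Uqcr genes, Cyc1, the Cox4 to Cox8 genes and the Atp5 genes. This gave 85 of the 32285 genes listed, 37 in complex I, 4 in complex II, 9 in complex III, 18 in complex IV and 17 in complex V. One further symbol of the kind, Ndufb1-ps, was left out for its pseudogene ending. No measured value entered the choice.

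There were 2 libraries, 1 of wild-type mice (WT) and 1 of mice without miR-33 in hepatocytes (HKO). The HKO mice carried loxP-flanked miR-33 alleles and Cre recombinase under the albumin promoter, which is active in hepatocytes, and their genotype is labelled AlbCRE. Mice of both genotypes received CD-HFD, a fat-rich diet deficient in choline, for 6 months from 8 weeks of age. Each library was a pool of 3 livers, and hepatocytes and sorted non-parenchymal cells were mixed in equal numbers before loading, so the libraries cannot give the cell makeup of the tissue. With 1 library per genotype no test between genotypes was possible and none was made, and a library cannot be told apart from its genotype. Intervals on levels and ratios are 95% intervals for counting error alone, and those on medians come from the spread between genes. Both leave out differences between animals, pools and preparations.

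The 5 complexes sit in or on the inner mitochondrial membrane. Complexes I and II pass electrons from NADH and succinate to ubiquinone, complex III passes them to cytochrome c, complex IV passes them to oxygen, and complex V makes ATP from the proton gradient that complexes I, III and IV build. Complexes I, III, IV and V each combine nuclear and mitochondrially encoded subunits, whereas complex II is wholly nuclear and is also an enzyme of the TCA cycle. In liver the periportal hepatocytes, which receive the most oxygen, are known for oxidative metabolism, and the pericentral ones for glycolysis and drug metabolism.

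The counts were of unique molecular identifiers (UMIs), each marking 1 captured RNA molecule, and levels are given as counts per 1000000 UMIs (CPM). In all, 130451427 UMIs were counted over 30078 barcodes of WT and 52563185 over 20000 barcodes of HKO. Hepatocyte-like barcodes were those without markers of other cells and with at least 5000 UMIs. They numbered 1934 in WT and 1653 in HKO, with median depths of 20133 and 10682 UMIs. All 8 hepatocyte markers were present, each in 85.8% to 100% of the barcodes. The summed level of 5 red blood cell markers was 736 CPM in WT against 113 CPM in HKO, that of 7 cholangiocyte markers was 334 and 211 CPM, and that of 8 B and plasma cell markers was 7.06 and 58.9 CPM. Their part in the results below was not tested. The tables list no row for Mir33, and its deletion cannot be checked with them. Its host gene Srebf2, with 1227 UMIs in WT and 411 in HKO in these barcodes (ratio 0.792, 0.707 to 0.886), does not show whether Mir33 was deleted.

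Because the genotypes differ in miR-33, its sequences and their matches in these genes are shown first. Both arms of the precursor lie on chromosome 15 of GRCm38 inside an intron of Srebf2, at chr15:82198127-82198147 and chr15:82198167-82198188 on the plus strand. A miRNA is known to pair with target RNAs through its seed, bases 2 to 8, printed in capitals.
mmu-miR-33-5p: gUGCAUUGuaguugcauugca
mmu-miR-33-3p: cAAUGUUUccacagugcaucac
The complement of the miR-33-5p seed was found in the annotated 3′ UTR of 0 of the 85 genes, against 520 of 6904 genes expressed in hepatocyte-like barcodes (7.53%). The 3′ UTRs of the 85 genes were short, with a median of 189 bases against 1223 bases, and added up to 37334 bases. The complement of the miR-33-3p seed was found in 9 of the 85 genes (10.6%), against 22.5% of the expressed genes. Per 10000 bases of 3′ UTR, however, the members held 2.95 matches and the expressed genes 1.75. These included Uqcrfs1, the Rieske iron-sulfur protein of complex III, with 2 matches, and Ndufv2, a flavoprotein fragment subunit of complex I, with 1. In these 3 the match is followed by an A, and the match is printed in capitals within 22 bases of the 3′ UTR.
Uqcrfs1, chr13:30540594-30540615, minus strand: aatgtattggcAAACATTaatg
Uqcrfs1, chr13:30540461-30540482, minus strand: taattctaataAAACATTacag
Ndufv2, chr17:66078646-66078667, minus strand: ttgtatgaataAAACATTacct
Sdhb, Cyc1, Ndufb2, Atp5h, Atp5j, Atp5md and Cox7a2l held a match without that A. In hepatocyte-like barcodes Uqcrfs1 was at 177 CPM in WT against 156 CPM in HKO, and Ndufv2 at 95.3 and 92.2 CPM. With no miR-33-5p match among the members, their levels could not be split by it, and a match by letters says nothing of binding.

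The promoters of these genes are known for sites of NRF1, ETS factors such as GABPA, YY1 and ERR factors, so these motifs were searched on both strands. RefSeq promoters of GRCm38.p6, from 250 bases before to 50 bases after the start, were matched for 67 of the 85 genes. Only the first promoter listed for a gene was searched. As 4163 genes had over 1 promoter, a motif at another start was not counted. The NRF1 core CGCATGCG stood in 8 of the 67 (11.9%), against 1.91% of 27025 genes with a promoter and 4.39% of 5677 expressed genes. The ETS motif CCGGAAG stood in 16 (23.9%), against 9.12% and 19.9%, and the YY1 motif AAGATGGCG in 6 (8.96%), against 1.49% and 4.00%. In mitochondrial ribosome genes the NRF1, ETS and YY1 motifs stood in 10.1%, 36.2% and 11.6% of promoters. In cytosolic ribosomal protein genes they stood in 3.03%, 37.9% and 6.06%, so such shares were not particular to the members. The ERR motif TCAAGGTCA stood in 2 (2.99%), Sdhd and Atp5g3, against 0.407% and 0.194%, and the TATA motif TATAAA in 8 (11.9%), against 14.2% and 7.56%. The NRF1 matches of 5 members from complexes I, III, IV and V are printed in capitals, with up to 10 bases on each side.
Ndufa8, chr2:36049330-36049357, minus strand: tcgctggagaCGCATGCGcagatggtac
Uqcr11, chr10:80406809-80406836, minus strand: atcgccttcaCGCATGCGctatacgtct
Uqcrc1, chr9:108936669-108936696, plus strand: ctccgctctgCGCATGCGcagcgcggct
Cox6a1, chr5:115349102-115349129, minus strand: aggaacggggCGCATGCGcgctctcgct
Atp5g2, chr15:102671071-102671098, minus strand: gctccggccgCGCATGCGcagagccttc
The other NRF1 matches were in Ndufa11, Atp5k and Atp5l. Of the 6 YY1 matches, 5 were in complex I (Ndufa9, Ndufc1, Ndufs4, Ndufs6 and Ndufs7) and 1 in complex V (Atp5j2).

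The 85 genes took 3.04% of the UMIs of hepatocyte-like barcodes in WT and 3.22% in HKO. The 13 mitochondrially encoded protein genes took 12.9% and 14.8%. In summed level, complex I was at 9069 CPM in WT against 9272 CPM in HKO, complex V at 8794 and 9641 CPM, complex IV at 7469 and 7812 CPM, complex III at 4395 and 4892 CPM, and complex II at 651 and 609 CPM. Complexes I, IV and V were thus each above complex III in both libraries, and complex II was lowest. The order among complexes I, IV and V rests on the place given to Ndufa4 (1274 and 1357 CPM), counted in complex I by its symbol although known as a subunit of complex IV, and on leaving out Ndufb1-ps (456 and 548 CPM). These sums rest on unequal numbers of genes, and a 3′ UMI count is a count of molecules that is not scaled by transcript length.

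Of the 85 genes, 77 had a mean of at least 10 CPM over the libraries, 36 in complex I, 11 in complex IV and all of complexes II, III and V. The other 8 were mostly isoforms known from muscle, testis or other tissues. Cox4i2 and Cox6a2 had 1 UMI each in WT and 0 in HKO, Cox7b2 had 0 and 1, and Cox8c had 0 in both, where 3 counts stand for 0.061 CPM in WT against 0.144 CPM in HKO. Cox6b2 had 29 and 21 UMIs, Cox8b 34 and 10, and Ndufa4l2 59 and 31. Cox7a1, the heart and muscle form of the Cox7a subunit, came closest to the minimum, with 9.30 CPM in WT against 9.57 CPM in HKO (457 and 199 UMIs). Its liver form Cox7a2 was at 648 and 839 CPM, and likewise Cox4i1, Cox6a1, Cox6b1, Cox7b and Cox8a took nearly all UMIs of their isoform sets.

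**Figure D1:**
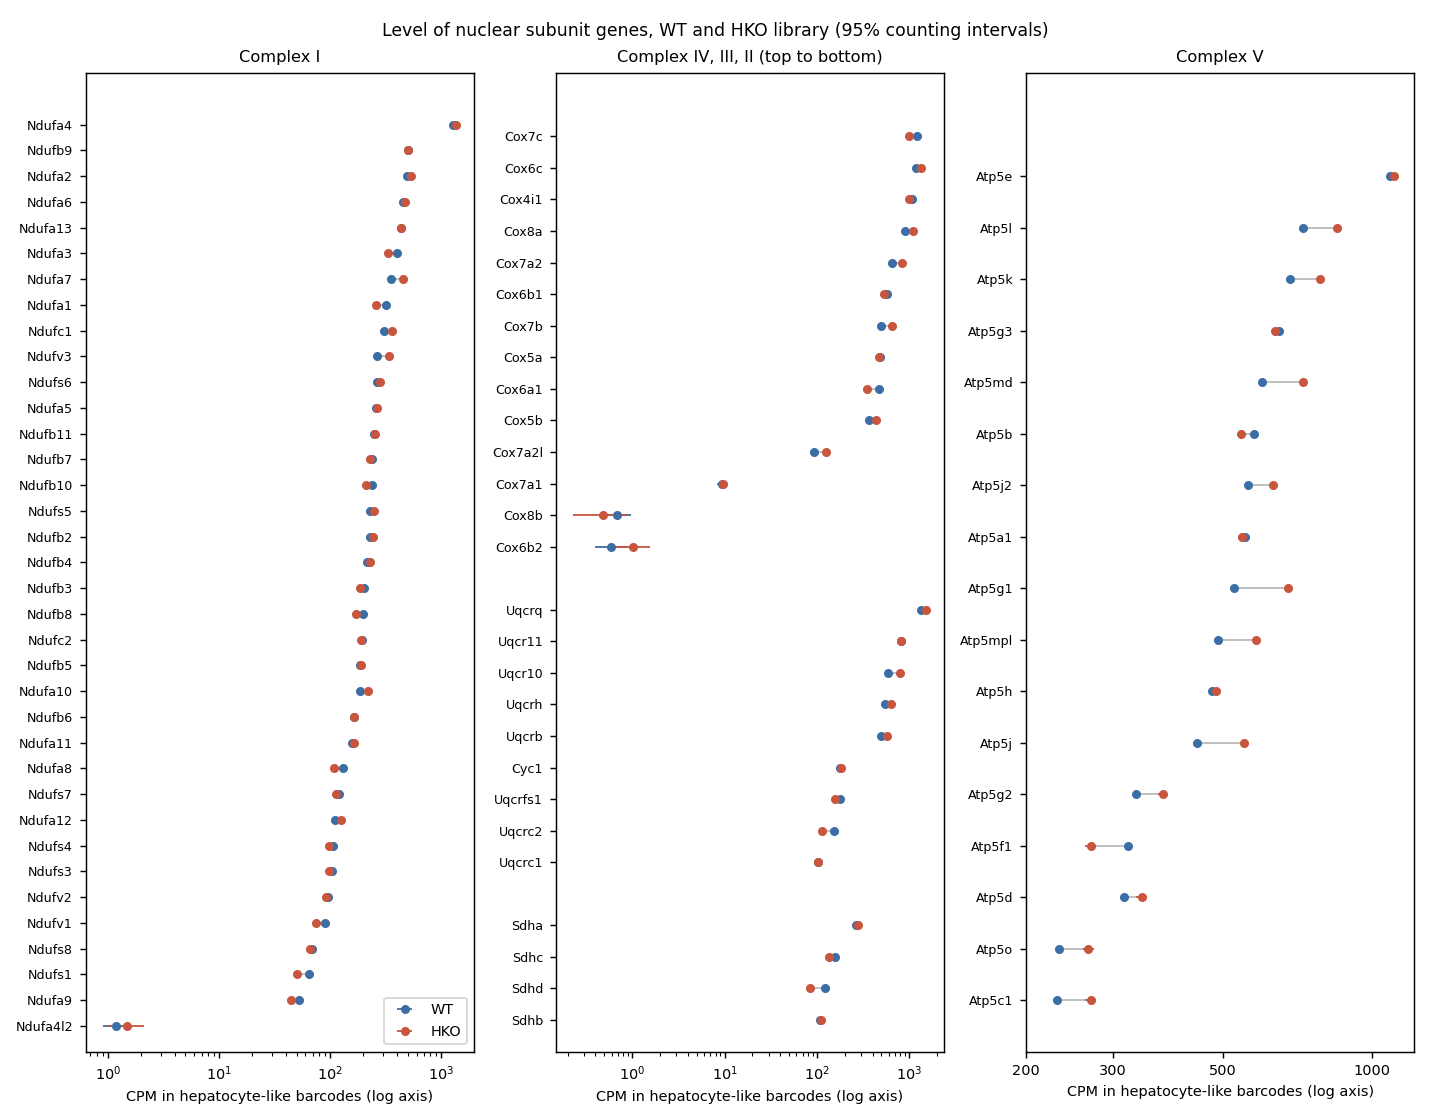
Level of nuclear subunit genes with at least 3 UMIs in both libraries, in CPM on a log axis, by complex, for the WT library (blue) and the HKO library (red), with 95% counting intervals as bars. Most pairs of points lie close together beside the spread between genes, which within complex I runs from under 2 CPM for Ndufa4l2 to 1274 and 1357 CPM for Ndufa4.

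The comparison of the libraries addresses whether hepatocytes without miR-33 differ in these genes. Over the 77 genes, 43 were higher and 34 lower in HKO, and the median log2 ratio was 0.03 (−0.02 to 0.10), beside −0.01 over all 7093 genes with at least 10 CPM. Being at least 25% higher or at least 20% lower, which is the same fold either way, was taken as the mark of a difference worth counting. In HKO 7 members were that much higher, beside 10.4% of all genes tested, and 4 were that much lower, beside 14.2%. These counts depended on how barcodes were pooled. With ratios averaged within depth bins 23 of the 77 were at least 25% higher, beside 14.5% of all genes, and with barcodes thinned to 5000 UMIs 13 were, beside 13.8%. Without a depth minimum 4 were that much higher, beside 8.26%, and 13 at least 20% lower, beside 20.3%. With the main pooling no member differed by 1.5-fold.

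In complex I the nuclear core subunits carry the flavin and the iron-sulfur clusters or line the path of electrons to ubiquinone. Ndufs1 was at 64.8 CPM in WT against 50.3 CPM in HKO, and its ratio of 0.776 (0.723 to 0.833) was the lowest of the complex. Ndufv1, the NADH-binding subunit, was at 89.7 and 74.6 CPM, a ratio of 0.832 (0.784 to 0.881). Ndufs7, Ndufs3, Ndufs8 and Ndufv2 had ratios of 0.942 to 0.967. The intervals of Ndufs8 and Ndufv2 reached 1. With barcodes pooled over depth these 6 were thus lower in HKO, as they were in barcodes from 5000 to 10000 UMIs. From 10000 to 20000 UMIs, however, Ndufs7 was at 1.43 (1.29 to 1.59), Ndufs3 at 1.53 (1.37 to 1.72), Ndufs8 at 1.46 (1.28 to 1.68), and Ndufv2 at 1.40 (1.24 to 1.57) of the WT level. Ndufv1 was at 1.11 with an interval that included 1, and of the 6 Ndufs1 alone stayed below 1, at 0.792 (0.696 to 0.901). In barcodes of 20000 UMIs or more Ndufs1 was at 0.779 (0.686 to 0.882) and Ndufv1 at 0.830 (0.750 to 0.916). Ndufs7, Ndufs3, Ndufs8 and Ndufv2 had intervals that included 1 there. The 29 accessory genes of complex I were higher in 17 and lower in 12, with a median of 0.02 (−0.07 to 0.10). Of these accessory subunits, Ndufa1 was at 319 CPM in WT against 259 CPM in HKO (ratio 0.812), while Ndufv3 was at 267 and 340.2 CPM (1.27) and Ndufa7 at 353 and 452 CPM (1.28). Ndufa4, which carries a complex I symbol but is known as a subunit of complex IV, had the highest level, with 1274 and 1357 CPM (ratio 1.06), followed by Ndufb9 in WT (498 CPM, and 504 CPM in HKO) and Ndufa2 in HKO (538 CPM, and 494 CPM in WT). Over the 36 genes of complex I the median log2 was −0.01 (−0.09 to 0.07), and it turned to 0.15 when ratios were averaged within depth bins.

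Complex II had the member with the lowest ratio among the 77. Sdhd, an anchor subunit in the membrane, was at 122 CPM in WT (6014 UMIs) and 84.3 CPM in HKO (1753 UMIs), a ratio of 0.689 (0.653 to 0.727). Sdhc, the other anchor, was at 156 and 134 CPM (0.861, 0.824 to 0.899). The catalytic subunits Sdha, which holds the flavin, and Sdhb, which holds the iron-sulfur clusters, were at 266 and 279 CPM and at 107 and 111 CPM, with ratios of 1.05 and 1.04. The interval of Sdhb (0.990 to 1.09) included 1. Anchors and catalytic subunits were not split in this way at each depth. In barcodes from 5000 to 10000 UMIs Sdha was at 0.834 (0.769 to 0.905) and Sdhb at 0.891 (0.786 to 1.01) of the WT level, and in those from 10000 to 20000 UMIs Sdhc was at 1.03 (0.945 to 1.12). In barcodes of 20000 UMIs or more Sdhd was at 0.726 (0.662 to 0.794) and Sdhc at 0.897 (0.832 to 0.965). Sdha was at 1.03 and Sdhb at 1.05 there, with intervals that included 1.

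In complex III the lowest and the highest ratio lay far apart. Uqcrc2, a core protein of the matrix side, was at 153 CPM in WT against 114 CPM in HKO (0.744, 0.710 to 0.779), while its partner Uqcrc1 was at 104 and 103 CPM (0.996, 0.946 to 1.05). Uqcrfs1 was at 0.880 (0.845 to 0.916) of its WT level. Cyc1, which is cytochrome c1, was at 178 and 182 CPM (1.03). The small subunit Uqcr10 was at 589 and 800.3 CPM, a ratio of 1.36 (1.33 to 1.38) and the highest among the 77 members with at least 10 CPM. Uqcrh was at 544 and 629.8 CPM (1.16). Uqcrq, the member with the highest level in the whole list, was at 1332 and 1525 CPM, and Uqcr11 at 819 and 807 CPM. The median over the 9 genes was 0.04 (−0.18 to 0.21).

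Complex IV was likewise split. Cox4i1, Cox5a and Cox5b surround the mitochondrially encoded core and were at 1064 and 989 CPM (0.930), 477 and 467 CPM (0.979) and 363 and 439 CPM (1.21). Cox6a1 was at 465 CPM in WT against 345 CPM in HKO, a ratio of 0.741 (0.722 to 0.761), and Cox7c at 1199 and 986 CPM (0.823). Higher in HKO were Cox7a2 (1.29), Cox7b with 499 and 650.2 CPM (1.30), and Cox7a2l with 93.9 and 125 CPM (1.34, 1.27 to 1.40). Cox7a2l is no core subunit and is known for its place in respiratory supercomplexes. Cox8a was at 894 and 1089.8 CPM (1.22), and Cox6c, the member of the complex with the highest level in HKO, at 1176 and 1335 CPM. The median of 0.18 (−0.28 to 0.38) had an interval that included 0.

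Complex V was the one whose median interval lay above 0. In HKO 13 of its 17 genes were higher and 4 lower, the median log2 being 0.18 (0.03 to 0.23). The direction of its summed level turned with depth and Malat1, since HKO over WT was 1.57 (1.55 to 1.59) in barcodes from 10000 to 20000 UMIs but 0.969 (0.955 to 0.983) from 5000 to 10000 and 0.740 (0.714 to 0.768) from 500 to 1000. By Malat1 level of the barcode it was 1.08 (1.07 to 1.08) under 2000 CPM, 0.889 and 0.913 in the groups from 2000 and from 5000 CPM, and 0.725 (0.705 to 0.746) from 10000 CPM. The catalytic head subunits Atp5a1 and Atp5b were at 553 and 547 CPM (0.989) and at 577 and 542 CPM (0.940), and the shaft subunit Atp5c1 at 231 and 270.2 CPM (1.17). Atp5g1, Atp5g2 and Atp5g3 encode the same mature ring protein. Atp5g1 was at 526 CPM in WT against 676 CPM in HKO (1.28, 1.26 to 1.31), Atp5g2 at 334 and 378 CPM (1.13) and Atp5g3 at 648 and 635 CPM (0.979), so the most abundant of the ring genes was Atp5g3 in WT and Atp5g1 in HKO. Atp5j, of the peripheral stalk, was at 443 and 549.8 CPM (1.24), and Atp5f1, also of the stalk, at 322 and 270.1 CPM (0.839). Atp5e and Atp5l had the highest levels, at 1084 and 1108 CPM and at 726 and 850.3 CPM. Atp5g1 was the one gene of the complex at least 25% higher.

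**Figure D2:**
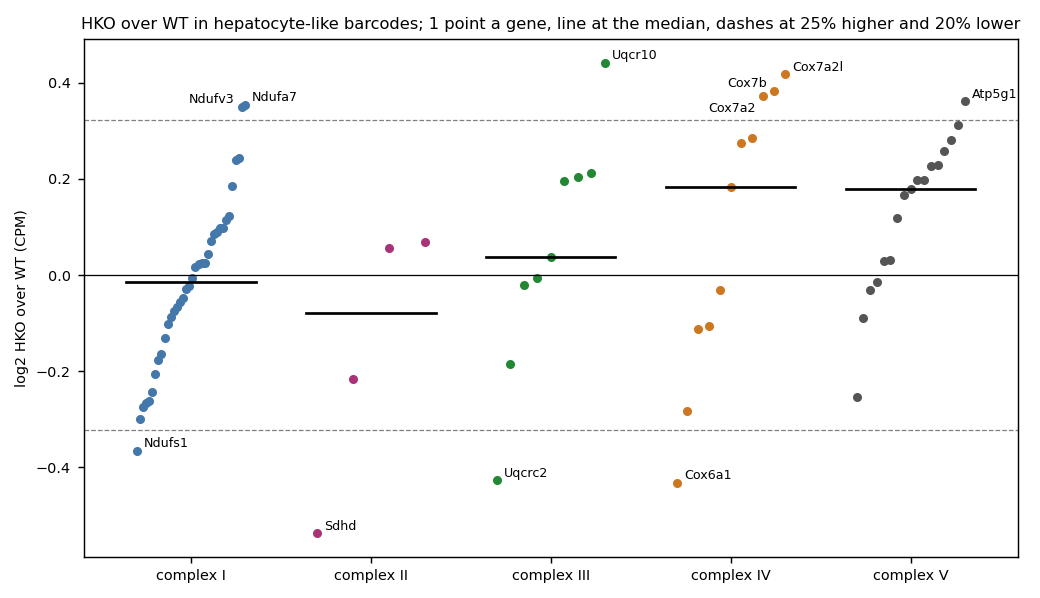
Log2 ratio of HKO over WT in hepatocyte-like barcodes for the 77 genes with at least 10 CPM, 1 point per gene, with a line at the median of each complex and dashed lines at 25% higher and 20% lower; the named points lie beyond the dashes. The medians run from −0.08 in complex II to 0.18 in complexes IV and V, and every complex has members on both sides of 0.

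Other genes of the pathway are set beside these. Of 21 core and structural subunits listed over the 5 complexes, 5 were higher and 16 lower in HKO with barcodes pooled over depth, with a median of −0.08 (−0.18 to −0.01), against 38 higher and 18 lower of the other 56 members, with a median of 0.09 (0.02 to 0.18). The direction of the core list turned with depth. From 10000 to 20000 UMIs, where 73 of the 77 members were higher, Ndufs1, Sdhd and Uqcrc2 alone of the core list were lower in HKO. Of 13 mitochondrially encoded protein genes 11 were higher, with a median of 0.13, led by mt-Nd6 (1.43), mt-Co3 (1.34) and mt-Co1 (1.32). Of 37 assembly factors 21 were higher and 16 lower (median 0.02), and of 77 mitochondrial ribosome genes 37 were higher and 40 lower (median −0.01). Of 13 TCA cycle genes 5 were higher and 8 lower. Among them Cs, citrate synthase, was at 80.5 CPM in WT against 47.4 CPM in HKO (0.589, 0.549 to 0.632), and Ogdh, a subunit of the oxoglutarate dehydrogenase complex, was at 121 and 162 CPM (1.34). Of 8 upstream regulators 6 were higher and 2 lower. Tfb2m, a mitochondrial transcription factor, was at 22.3 and 31.6 CPM (1.42), Ppargc1b at 26.9 and 35.2 CPM (1.31) and the coactivator Ppargc1a at 36.6 and 45.8 CPM, and Yy1 at 57.6 and 67.1 CPM (1.17), while Gabpa, a subunit of the ETS factor named above, was at 27.2 and 24.0 CPM (0.882, 0.794 to 0.978), and Nrf1, Tfam and Esrra had intervals that included 1. Cytosolic ribosomal protein genes, which code for short and abundant transcripts of another kind, were higher in 77 of 83, with a median of 0.36.

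The level of all members depended on the depth of the barcode, and not in the same way in the libraries. Barcodes without markers of other cells were binned by UMIs from 500 upward. Whether shallow barcodes were cells or droplets of free RNA was not tested. In WT the summed level of the members was 38105 CPM in the bin from 500, 36690 CPM from 2000, 20772 CPM from 10000, 26132 CPM from 20000 and 37490 CPM from 40000. In HKO it was 29041 CPM from 500, 37271 CPM from 2000, 29197 CPM from 5000, 32283 CPM from 10000 and 34392 CPM from 20000. The WT level thus had a trough between 10000 and 20000 UMIs, and the HKO level a shallower one between 5000 and 10000. Complex I followed this course in WT, with 11092 CPM from 2000, 5997 CPM from 10000 and 11375 CPM from 40000. Complex II moved less, with 891, 548 and 701 CPM in the same bins. At the trough, mitochondrially encoded genes took 20.1% of the WT UMIs, against 4.06% in the bin from 2000 and 7.89% in that from 40000, and the nuclear-retained RNA Malat1 was at 7498 CPM, against 2663 and 4791 CPM. In the HKO bin from 5000 they stood at 18.3% and 7241 CPM, also the highest of that library. Their part in the troughs was not tested.

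Set side by side within a bin, HKO over WT for all members was 0.762 (0.747 to 0.777) from 500 to 1000 UMIs, 0.955 (0.947 to 0.963) from 1000, 1.02 (1.01 to 1.02) from 2000 to 5000 UMIs, 0.948 (0.940 to 0.955) from 5000, 1.55 (1.54 to 1.56) from 10000 and 1.32 (1.31 to 1.32) from 20000 to 40000. The number of the 77 members that were higher in HKO was 2, 27, 39, 26, 73 and 68 in these bins, while the median over all genes stayed between −0.22 and 0.06. With all barcodes of 20000 UMIs or more pooled, 49 were higher and the members' median log2 was 0.09. This pool was not matched in depth, as 345 of its 976 WT but 7 of its 219 HKO barcodes had 40000 UMIs or more. Within its 2 parts the members' median was 0.38 from 20000 to 40000 UMIs and 0.30 from 40000, where 61 members were higher. For complex II the ratio was 0.769 from 5000, 1.12 from 10000 and 1.01 from 20000, so it was below that of all members in each of these bins. Cytosolic ribosomal protein genes had ratios of 1.19, 1.86 and 1.60, and Malat1 had 1.95, 0.792 and 0.581, in the 3 bins from 5000. In the bins from 5000, from 10000 and of 20000 UMIs or more, 24 members were above 1 in all 3 and 4 were below 1 in all 3. The latter were Ndufs1, Sdhd, Uqcrc2 and Cox6a1. Uqcrc2 was the steadiest, at 0.726, 0.70 and 0.719.

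The bin that holds the commonest depth of each library was also set against barcodes of 20000 UMIs or more. In WT 65 of 77 members were higher in the shallow bin, with a median of 0.23 (0.17 to 0.28), and in HKO 18 were higher and 59 lower, with a median of −0.23 (−0.29 to −0.14). Of all 7093 genes 3905 were higher in WT, with a median of 0.05, and 4406 were lower in HKO, with a median of −0.11. The opposite directions were also found in mitochondrial ribosome genes, with medians of 0.27 in WT and −0.21 in HKO. In WT 24 members were at least 25% higher, beside 20.5% of all genes, and 1 was at least 20% lower, beside 21.2%. In HKO 1 was that much higher, beside 10.9% of all genes, and 26 that much lower, beside 26.5%. Complex II was highest in the WT contrast (0.41), with Sdhc at 246 CPM in the shallow and 158 CPM in the deep barcodes, and Ndufs1 was higher in the shallow barcodes of both libraries (ratios of 1.5 and 1.38). Mitochondrially encoded genes had medians of −1.52 in WT and −0.16 in HKO. The opposite directions of the members depended on the unlike bins. In HKO barcodes from 2000 to 5000 UMIs, the bin used for WT, the members summed to 37271 CPM. In HKO barcodes of 20000 UMIs or more the 77 members summed to 35050 CPM, so by summed level this bin was higher, as in WT (36678 and 32151 CPM).

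**Figure D3:**
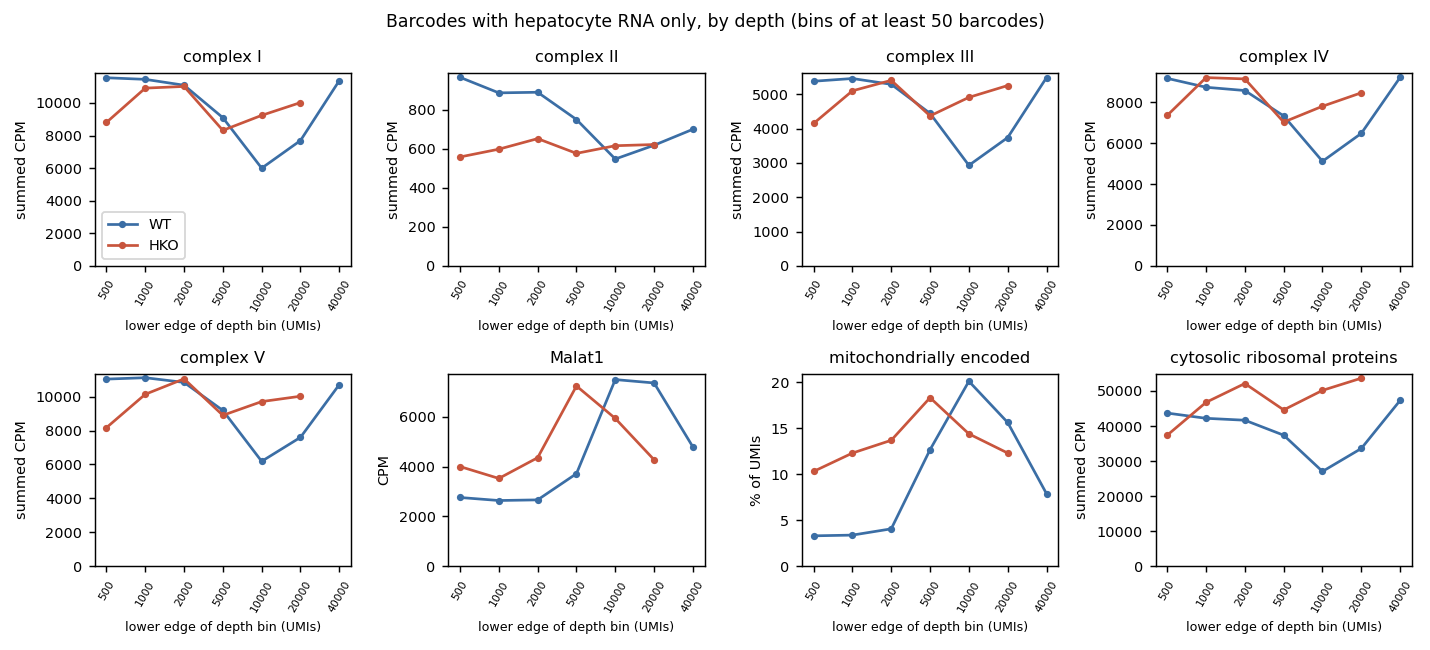
Summed CPM of each complex, Malat1 CPM, percent of UMIs from mitochondrially encoded genes and summed CPM of cytosolic ribosomal proteins, by lower edge of the depth bin in UMIs, for barcodes without markers of other cells in WT (blue) and HKO (red), in bins of at least 50 barcodes. All 5 complexes have a WT trough in the bin from 10000, where Malat1 and the mitochondrial percent are at their WT maximum.

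Between single hepatocyte-like barcodes the spread was wide. With each thinned to 5000 UMIs, the members had a median of 135 UMIs in WT, the 5th and 95th percentiles being 33 and 277, and of 151 UMIs in HKO (21 and 379). Complex II had a median of 3 UMIs in both. Complexes I, III, IV and V moved together over barcodes, with Spearman correlations of 0.90 to 0.94 between them over 1934 and 1653 barcodes, which share their library and thinned depth. Complex II correlated with them at 0.48 to 0.54, at its far lower counts. The members also went with cytosolic ribosomal proteins (0.84 to 0.86 for complexes I, III, IV and V) and against Malat1 (−0.55 to −0.72) and the mitochondrially encoded genes (−0.58 to −0.64).

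Grouped by the Malat1 level of the barcode, the members' summed level in WT was 40026 CPM under 2000 CPM of Malat1, 31606 CPM from 2000 to 5000, 20115 CPM from 5000 to 10000 and 10930 CPM above, over 860, 450, 308 and 316 barcodes. In HKO the values were 41639, 27798, 18044 and 7913 CPM over 974, 230, 189 and 260 barcodes. The fall from the lowest to the highest Malat1 group was thus over 3-fold in both libraries. HKO over WT was 1.04 (1.037 to 1.044), 0.880 (0.873 to 0.886), 0.897 (0.887 to 0.907) and 0.724 (0.713 to 0.735) in these groups, above 1 in the group with the least Malat1 alone. These groups were chosen after the data had been seen. In 3 groups of equal size by mitochondrially encoded share, with levels per 1000000 nuclear UMIs, the members were at 41517, 36440 and 19931 in WT from the lowest to the highest share and at 46295, 38820 and 23281 in HKO. Complex II was highest in the middle group, with 748, 844 and 586 in WT and 706, 782 and 602 in HKO.

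Zones were read from a score of pericentral minus periportal genes, with hepatocyte-like barcodes of each library in 3 groups of equal size. The score separated its own markers, which is no finding: Glul was at 25.1 CPM in the periportal and 412 CPM in the pericentral group of WT, and at 12.8 and 1172 CPM in HKO. In WT the members summed to 24510 CPM periportally, 34853 CPM in the middle and 32013 CPM pericentrally. In HKO they summed to 30807, 32264 and 33832 CPM. The libraries differed most in the periportal group, where WT was lowest. The score used none of the members.

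In WT 75 of 77 members were higher pericentrally, with a median log2 of 0.37 (0.33 to 0.43) beside 0.00 over all genes, with 48 at least 25% higher, against 21.1% of all genes, and 0 at least 20% lower, also against 21.1%. In HKO 62 of 77 were higher, with a median of 0.15 (0.11 to 0.18), which equals that over all genes. In HKO 7 members were at least 25% higher, against 28.5% of all genes, and 0 at least 20% lower, against 8.19%. Relative to all genes, the members were therefore higher pericentrally in WT and at the level of all genes in HKO.

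Complex I had the largest median in WT (0.42, with 28 genes at least 25% higher), and it was at 0.17 in HKO. This WT rank depended on the zone groups. With the outer 2 of 4 groups the WT medians of complexes I and IV were lower, and complex IV was slightly above complex I. Ndufs5, an accessory subunit, was at 159.8 CPM periportally and 254 CPM pericentrally in WT (1.59, 1.51 to 1.67) and at 192 and 296 CPM in HKO (1.54, 1.44 to 1.65), the member with the steepest gradient in both libraries within the complex. Ndufb3 had ratios of 1.42 and 1.40. Ndufa3 was at 274 and 423 CPM in WT (1.54), but at 337 and 332 CPM in HKO (0.985). Ndufs1 was at 63.9 and 62.1 CPM in WT (0.972, 0.892 to 1.06), the lowest of the complex, and Ndufs4 (1.11) and Ndufa10 (1.13) followed. In HKO the lowest were Ndufa13 (0.903) and Ndufa1 (0.921). Of the core subunits, Ndufs7 had the highest ratio in both, 1.48 in WT and 1.34 in HKO.

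Complex II was the flattest, with medians of 0.17 in WT and −0.01 in HKO, and none of its genes was 25% higher or 20% lower. In WT its ratios ran from 1.06 for Sdhb (94.3 and 99.9 CPM) to 1.17 for Sdhc (143 and 167 CPM), and in HKO from 0.961 for Sdha to 1.07 for Sdhd. All 4 HKO intervals included 1. The WT direction of complex II turned with the setting. Its summed WT ratio was 0.793 (0.710 to 0.885) from 5000 to 10000 UMIs, 1.11 (1.04 to 1.20) from 10000 and 1.15 (1.11 to 1.18) from 20000. Within barcodes under 2000 CPM of Malat1 its WT median was slightly negative.

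In complex III Uqcr11 had the steepest WT gradient among the 77 members over the level minimum, at 532 CPM periportally, 1016 CPM in the middle and 919 CPM pericentrally (1.73, 1.68 to 1.77), and it was at 719 and 941 CPM in HKO (1.31, 1.26 to 1.36). Uqcrq followed in WT (1.40). Cyc1 (1.06) and Uqcrc2 (1.14) had the lowest WT ratios of the complex, and Uqcrc1 the lowest in HKO (0.980, 0.886 to 1.08). The medians were 0.30 and 0.09.

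In complex IV Cox6b1 (409 and 636 CPM in WT, ratio 1.55) and Cox4i1 (763 and 1130 CPM, 1.48) were highest, and Cox7b was lowest (467 and 502 CPM, 1.08). In HKO, Cox7a2l (1.26) and Cox6b1 (1.23) were highest and Cox6a1 lowest (359 and 339.5 CPM, 0.945, 0.894 to 0.998), although its WT ratio was 1.34. The medians were 0.36 and 0.15. Cox7a1, under the level minimum, had 6.61 and 11.5 CPM in WT (1.75, 1.37 to 2.23).

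In complex V Atp5e was at 771 and 1181 CPM in WT (1.53) and 1007 and 1217 CPM in HKO (1.21), and Atp5d at 1.38 and 1.29. The catalytic subunits were shallow in WT and inverse in HKO, with Atp5b at 1.10 and 0.891 (0.852 to 0.931) and Atp5a1 at 1.11 and 0.936 (0.896 to 0.977). Of the ring genes, Atp5g1 was at 519 and 516 CPM in WT (0.995, 0.966 to 1.03) and 706 and 633 CPM in HKO (0.897), while Atp5g2 was at 269 and 366 CPM in WT (1.36) and at 337 and 420.4 CPM in HKO. Identical mature proteins were thus encoded by mRNAs with different zone ratios. The medians were 0.31 and 0.14.

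Several values moved with the zone groups. Malat1 was at 8735 CPM periportally and 4415 CPM pericentrally in WT, and at 5333 and 4283 CPM in HKO. Cytosolic ribosomal protein genes had zone medians of 0.41 and 0.39, mitochondrial ribosome genes 0.37 and 0.35, and mitochondrially encoded genes −0.23 and −0.02. Within barcodes under 2000 CPM of Malat1, pericentral over periportal for the sum of the members was 1.17 (1.16 to 1.18) in WT and 1.18 (1.17 to 1.18) in HKO, with overlapping intervals, whereas it was 1.04 and 0.865 from 2000 to 5000 CPM of Malat1, 0.978 and 0.561 from 5000 to 10000, and 1.14 and 0.629 above. Within the depth bins from 5000, 10000 and 20000 UMIs it was 1.04, 1.31 and 1.31 in WT and 1.11, 1.15 and 1.07 in HKO, with 0.793 and 0.853 for complex II in the bin from 5000. In addition, 265 WT and 165 HKO barcodes lay within 0.05 of a boundary of the score.

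Zone ratios also went with transcript length. The members had a median transcript of 745 bases, against 2601 bases over all genes tested, from 535 bases in complex III to 1612 in complex II. In WT the Spearman correlation of the zone log2 with length was −0.46 over the 77 members and −0.46 over all genes. Genes under 800 bases had a median zone log2 of 0.39 in WT, and the 43 members among them had 0.43. Between 1500 and 3000 bases the medians were 0.05 over all genes and 0.18 over 15 members. In HKO the genes under 800 bases were at 0.26 and the members among them at 0.16, so members of that length lay slightly above other short genes in WT and below them in HKO. The part of length in the zone ratios was not tested further.

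**Figure D4:**
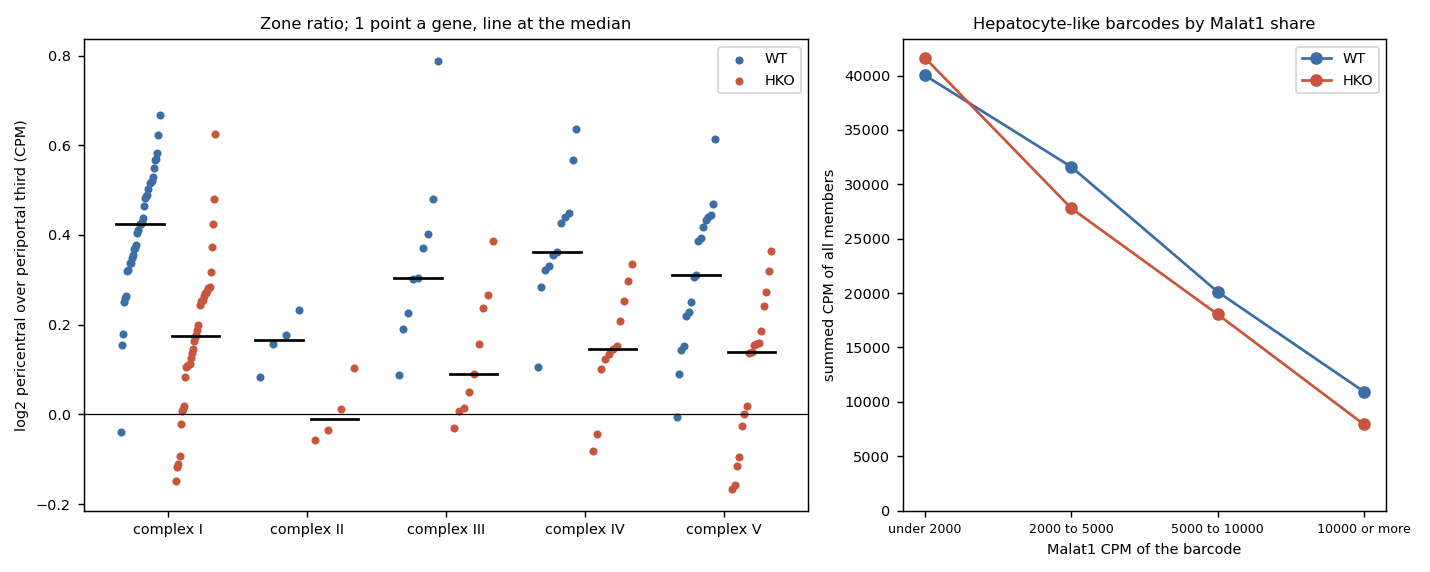
Left, log2 ratio of the pericentral over the periportal group for each of the 77 members by complex in WT (blue) and HKO (red), with a line at each median. Right, summed CPM of all members in hepatocyte-like barcodes grouped by their Malat1 CPM. The WT medians lie between 0.17 and 0.42 and the HKO medians between −0.01 and 0.17, and the members' level drops from about 40026 CPM to 10930 CPM in WT and from 41639 CPM to 7913 CPM in HKO as Malat1 increases.

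Cell classes with at least 50 barcodes in both libraries were T and NK-like (201 WT and 690 HKO barcodes), endothelial-like (109 and 183) and macrophage-like (78 and 177). Each held RNA of albumin, a hepatocyte product, at 48.7%, 47.4% and 43.1% in WT and 29.5%, 29.2% and 14.0% in HKO of its level in shallow barcodes without markers of other cells, and with shares so unequal the raw levels of the classes cannot be compared between the libraries. In WT the members summed to 22563 CPM in T and NK-like, 21279 CPM in endothelial-like and 24954 CPM in macrophage-like barcodes, beside 30378 CPM in hepatocyte-like ones. In HKO they summed to 16675, 17758 and 17651 CPM, beside 32226 CPM. With the profile of those shallow barcodes subtracted in these shares, which takes it to stand for the hepatocyte RNA in the classes and was not tested, the levels were 9218, 7469 and 16095 CPM in WT and 10510, 12189 and 15426 CPM in HKO. Macrophage-like barcodes were therefore highest of the 3 classes after this subtraction in both libraries. A deeply sequenced sub-cluster held 17 of the 78 WT and 94 of the 177 HKO macrophage-like barcodes. Its markers included Clec4f, Timd4 and Marco, known from Kupffer cells, and also Gpnmb and Trem2. The other macrophage-like sub-cluster held Clec4f and Vsig4 too when set against all barcodes.

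Relative to hepatocyte-like barcodes, the median log2 over the members was −0.39 in WT and −0.82 in HKO for T and NK-like, −0.48 and −0.82 for endothelial-like and −0.21 and −0.80 for macrophage-like barcodes. Most members are short, and over the genes under 800 bases that were tested in hepatocyte-like barcodes the medians were −0.15 and −0.51, −0.33 and −0.52, and 0.07 and −0.23, against −0.46 and −0.98, −0.56 and −0.84, and −0.21 and −0.85 for the 43 members of that length. The shares of all genes below also cover genes that were counted only through the class where they are high. At least 20% lower in T and NK-like barcodes were 49 members in WT, against 24.0% of all genes, and 72 in HKO, against 29.7%. In endothelial-like barcodes 54 were lower in WT, against 20.7%, and 70 in HKO, against 22.5%. In macrophage-like barcodes 30 were lower in WT, against 23.0%, and 67 in HKO, against 24.4%. The depth minimum of hepatocyte-like barcodes was not applied to these classes. Median depths in T and NK-like, endothelial-like and macrophage-like barcodes were 5548, 6047 and 3702.5 UMIs in WT, beside 20133 in hepatocyte-like ones. In HKO they were 2176.5, 3139 and 3765 UMIs, beside 10682. The part of depth in the ratios of the classes to hepatocyte-like barcodes was not tested. All 13 mitochondrially encoded genes were lower in each class and library.

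A few members went the other way. Cox7a2l was at 93.9 CPM in WT hepatocyte-like barcodes and at 137 CPM in T and NK-like, 146 CPM in endothelial-like and 179 CPM in macrophage-like ones, ratios of 1.45 (1.24 to 1.70), 1.56 (1.26 to 1.90) and 1.91 (1.55 to 2.33). In HKO it was at 125 CPM in hepatocyte-like barcodes and at 142, 226 and 197 CPM, with ratios of 1.13 (0.98 to 1.29), 1.80 and 1.57. Ndufs4, an accessory subunit of complex I, was higher in T and NK-like barcodes, with 154 against 107 CPM in WT (1.45, 1.24 to 1.68) and 179 against 97.3 CPM in HKO (1.84, 1.62 to 2.08). In macrophage-like barcodes it was lower, at 0.690 (0.494 to 0.937) and 0.795 (0.633 to 0.987). Cox5a was higher in macrophage-like barcodes, with 667 against 477 CPM in WT (1.40, 1.26 to 1.55) and 598 against 467 CPM in HKO (1.28, 1.18 to 1.39), and lower in T and NK-like barcodes (0.737 and 0.519). Ndufs8 was higher in WT macrophage-like barcodes (1.53, 1.16 to 1.98) but not in HKO ones (0.906, 0.70 to 1.16), from 59 and 67 UMIs. Ndufs1 was near the hepatocyte-like level in T and NK-like barcodes, at 1.15 (0.92 to 1.42) and 1.07 (0.86 to 1.33). Uqcrq was among the lowest, at 798 and 517 CPM in T and NK-like barcodes, ratios of 0.599 and 0.339. Cox6a2, known from heart and muscle, had 1 WT and 4 HKO UMIs in macrophage-like barcodes, too few to read.

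**Figure D5:**
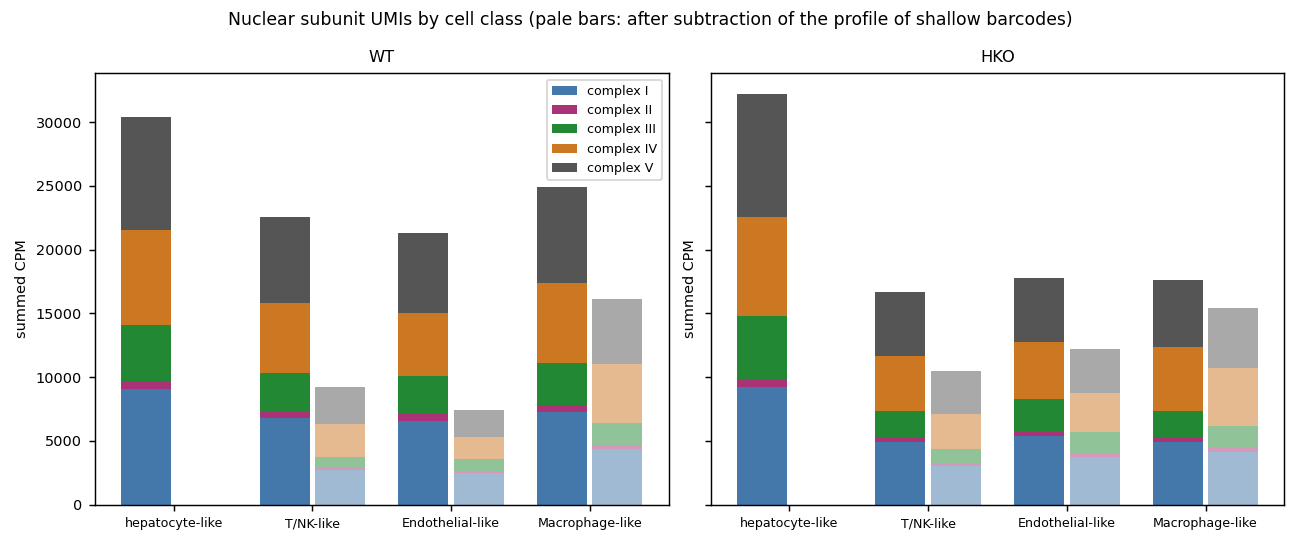
Summed CPM of the nuclear subunit genes, stacked by complex, in hepatocyte-like, T and NK-like, endothelial-like and macrophage-like barcodes of the WT (left) and HKO (right) library. Solid bars are values as counted and pale bars values after subtraction of the profile of shallow barcodes, which lowers T and NK-like barcodes from 22563 to 9218 CPM in WT and from 16675 to 10510 CPM in HKO.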

How the data were processed

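Whole-number UMI counts per gene and barcode were deposited by the authors for 2 libraries, made with Cell Ranger 7.1.0 per the file headers, with mm10, Seurat 3 and R 3.0 named in the submitters' processing notes; the options of counting were not given in the sources used here. By default this version counts intronic reads and drops reads that match several genes, so genes with processed pseudogenes may be undercounted. Barcodes with at least 500 UMIs, 300 genes and at most 50% mitochondrially encoded UMIs were kept. Scrublet's automatic threshold marked 0 doublets, so the top-scoring 7019 WT and 2664 HKO barcodes were left out, which gave 22601 and 15583. These were clustered (scanpy 1.11.5, igraph 0.11.9, Python 3.11.15) and named from fixed markers. The way clusters were named and the rule that called a sub-cluster mixed were settled after the clusters had been seen. No barcode list of the WT library was used here, so shared barcodes were not counted.

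UMIs were summed per class and library and scaled to CPM. Ratios have exact conditional intervals and levels exact Poisson intervals (scipy 1.17.1), which cover counting error only. Medians have intervals from order statistics of the log2 ratios over genes, which takes the genes as independent. The scripts were tested on simulated data. Named were the core subunits, the isoform sets and, per complex, the 2 genes with the highest and the lowest ratio and the 2 with the highest level; 1 gene is not reported by name here. Any other member, and genes of the pathway lists, were named after their values had been seen. The members, lists and rules were chosen with earlier results of these data known. Transcript lengths and 3′ UTRs came from GENCODE M21 (GRCm38), and miRNAs and promoters from RefSeq (GRCm38.p6). Alternatives concerned the depth minimum, weighting, thinning, denominators, zone groups, the fold behind a count and the subtraction of hepatocyte RNA from other classes.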

Additional observations from a re-analysis of the deposited data

Results flagged for a closer look

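Barcodes of the commonest depth, set against those of 20000 UMIs or more, went in opposite directions in the libraries. The median log2 over all members was 0.23 in WT and −0.23 in HKO, over complex I 0.26 and −0.16, and over complex V 0.18 and −0.26. Other genes also went in opposite directions, as all genes tested had medians of 0.05 and −0.11, mitochondrial ribosome genes 0.27 and −0.21, TCA cycle genes 0.22 and −0.29, and assembly factors 0.13 and −0.23. The commonest depth was itself not the same, at about 2570.4 UMIs in WT and 813 UMIs in HKO, so the shallow bin ran from 2000 to 5000 UMIs in WT and from 500 to 1000 in HKO. In HKO barcodes from 2000 to 5000 UMIs the members summed to 37271 CPM, above the 35050 CPM of the 77 members in HKO barcodes of 20000 UMIs or more. With the bin used for WT, the summed level thus went the same way in both libraries. The difference between the libraries was not tested, since each is a single library.

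Ndufb1-ps, whose symbol ends as a pseudogene's and which no comparison used, had 22438 UMIs in WT and 11393 in HKO hepatocyte-like barcodes. That is 456 and 548 CPM, near the level of Ndufb9 (498 and 504 CPM).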

How the results depend on the processing

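With 1 library per genotype, no setting replaces replicates. No paired analysis was possible because the labels give no replicate numbers and each genotype has 1 library. For the HKO over WT medians, 52 of 60 values under other settings kept the sign. Complex I, at −0.01 in the report, was 0.0703 with 2 times the commonest depth as the minimum, 0.0941 with each barcode weighted equally, 0.0940 when thinned to 5000 UMIs, 0.15 within depth bins and −0.11 without a minimum. Complex III was 0.23 within depth bins. Complex V was 0.24, 0.29, 0.30 and 0.32 with 2 times the commonest depth, equal weights, thinning and depth bins, and 0.23 without mitochondrially encoded and ribosomal protein genes in the denominator, whereas its summed ratio fell below 1 in barcodes of 5000 to 10000 UMIs (0.969) and in 3 of 4 Malat1 groups (0.725 to 0.913). Members at least 25% higher numbered 7 in the report and 4 without a depth minimum, 11 from 10000 UMIs, 23 within depth bins, 13 when thinned, 11 with that denominator and 3 under 2000 CPM of Malat1. Members at least 20% lower numbered 4 and, without a minimum, 13. At 1.5-fold both were 0.

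The WT zone medians of complexes I, IV and V were 0.23, 0.24 and 0.17 with the outer 2 of 4 zone groups. Within depth bins complexes I, II and V were 0.31, 0.00399 and 0.20, and complex I was 0.33 with a thinned score. Under 2000 CPM of Malat1, complexes I, III, IV and V were 0.30, 0.18, 0.24 and 0.19, and complex II reversed to −0.00205; in HKO complexes I and V were 0.28 and 0.25 there. The depth contrast of WT complex V was 0.0657 per nuclear UMIs. All 18 alternatives to the class medians over all members, and all 90 over single complexes, kept their sign. In WT the median over all members was −1.70, −2.00 and −0.82 in T and NK-like, endothelial-like and macrophage-like barcodes with shallow RNA subtracted, −0.84, −1.05 and −0.38 with the hepatocyte-like profile subtracted, and −0.51, −0.57 and −0.35 per nuclear UMIs. In HKO it was −1.54, −1.35 and −0.96, then −1.47, −1.45 and −1.01, and per nuclear UMIs −0.95 in endothelial-like and −0.97 in macrophage-like barcodes. The causes were not tested. Depth limits genes of few UMIs most, in HKO and in the small classes.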
